A study of Homo sapiens with 24 samples.

Results

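Raloxifene and tamoxifen were compared at the same dose and time in T47D cells, a luminal human breast cancer cell line that is positive for the estrogen receptor. Open chromatin was read by ATAC-seq, where adapters are inserted by the Tn5 transposase wherever DNA is accessible. The comparison rests on 8 of the 24 libraries of the study, chosen by their titles as 4 raloxifene and 4 tamoxifen libraries, and on every peak in the deposited table. Both groups were kept for 1 day in complete medium, RPMI with 10% fetal bovine serum, and then received 100 nM of raloxifene or 100 nM of tamoxifen for 1 h. A vehicle group of 4 libraries in the same medium received 0.1% DMSO for 1 h, going by their titles. Vehicle replicates 3 and 4 carry fulvestrant in their treatment label, and the vehicle values below include them unless stated. A fulvestrant group of 4 libraries in that medium received 100 nM for 1 h. It is not compared here but entered the statistical fit. Where estradiol is named, cells were held for 3 days in medium free of phenol red with charcoal-stripped serum and then received 1 nM estradiol or 0.1% DMSO for 1 h, with 4 libraries each. All groups come from this 1 cell line. The labels do not say whether replicates came from separate cultures, and every p-value below refers to the spread among these libraries, which may be technical.

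Both compounds are selective estrogen receptor modulators: they occupy the hormone pocket of the receptor and turn its last helix so that coactivators bind poorly, acting as antagonists in breast cells and partly as agonists in other tissues. They differ in scaffold, raloxifene being a benzothiophene and tamoxifen a triphenylethylene, and each carries a basic amine side chain. Raloxifene has phenol groups that contact the receptor directly, while tamoxifen lacks a phenol and is converted, chiefly in the liver, into hydroxylated metabolites that bind more tightly. The liganded receptor binds estrogen response elements, inverted repeats of a short sequence with a spacer, mostly in enhancers far from promoters, where cofactors open the chromatin further.

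The full element, GGTCANNNTGACC (a palindrome, so that both strands are covered), was searched in the RefSeq promoter windows of GRCh38.p14, from 250 bases before to 50 after each gene start. It occurred in 20 of 35116 windows (0.0570%). Tested peaks overlapped such a window at 3 places, shown because these windows hold both the receptor's own recognition letters and part of a measured peak. The element lies inside the LINC02130 peak and at the edge of the ZNF669 peak. At SLC35B2 it lies just outside the peak, on the side away from the gene, so the level there is not that of the element itself. The runs below are the 250 bases before each start on the gene's strand (minus for all of them), 5′ to 3′, with the full element in capitals.
LINC02130 (chr16:14370267-14370516): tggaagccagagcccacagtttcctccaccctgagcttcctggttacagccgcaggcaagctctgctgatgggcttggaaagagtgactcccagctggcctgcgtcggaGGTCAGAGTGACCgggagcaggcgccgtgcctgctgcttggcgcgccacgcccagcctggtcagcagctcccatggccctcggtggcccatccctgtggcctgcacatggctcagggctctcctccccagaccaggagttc
SLC35B2 (chr6:44257529-44257778): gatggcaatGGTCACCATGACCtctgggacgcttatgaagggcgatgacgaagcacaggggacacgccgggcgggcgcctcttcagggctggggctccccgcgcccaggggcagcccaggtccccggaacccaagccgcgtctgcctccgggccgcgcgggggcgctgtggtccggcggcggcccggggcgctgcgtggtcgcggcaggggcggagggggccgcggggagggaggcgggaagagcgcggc
ZNF669 (chr1:247104357-247104606): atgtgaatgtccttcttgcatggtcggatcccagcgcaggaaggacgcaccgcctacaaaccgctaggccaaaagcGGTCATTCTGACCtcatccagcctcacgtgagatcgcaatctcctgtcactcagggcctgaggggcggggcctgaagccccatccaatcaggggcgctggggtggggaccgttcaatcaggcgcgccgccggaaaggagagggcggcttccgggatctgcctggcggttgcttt

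The peak just upstream of the start of LINC02130, a long noncoding RNA gene (chromosome 16, 14370306 to 14370539), held 36.0, 33.8, 32.3 and 35.2 CPM (counts per peak relative to the scaled total of the library) in raloxifene replicates 1 to 4 and 37.1, 38.1, 32.1 and 31.6 CPM with tamoxifen. The groups overlapped, with a log2 difference (raloxifene minus tamoxifen, as throughout) of -0.01 and a 95% interval of -0.23 to 0.21. In starved cells the same peak was raised by estradiol by 1.13 on the log2 scale (edgeR adjusted p = 2.43e-09). The peak at SLC35B2, a Golgi transporter of the sulfate donor PAPS (chromosome 6, 44257489 to 44257749), held 18.7 ± 0.974 CPM with raloxifene and 16.2 ± 3.06 CPM with tamoxifen (SD, n = 4), a difference of 0.19 (-0.07 to 0.45). At ZNF669, a zinc finger gene whose start lies back to back with that of FLJ39095 (chromosome 1, 247104266 to 247104530), the levels were 55.7 ± 0.659 and 53.9 ± 6.45 CPM, a difference of 0.04 (-0.16 to 0.24). At none of these promoters did the compounds separate, and the intervals leave room for less than 1.5-fold in either direction.

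Across the genome, no peak was called different between raloxifene and tamoxifen. Of 189403 peaks, the 156745 with enough counts were tested, and 0 (0%) had an adjusted p under 0.05 by edgeR in either direction; the smallest adjusted p was 0.198. At an unadjusted p under 0.05 there were 6147 peaks (3.92%), of which 2902 (1.85%) were higher with raloxifene and 3245 (2.07%) with tamoxifen. DESeq2 also called 0, with 3836 peaks at an unadjusted p under 0.05. All 4 raloxifene libraries lay above all 4 tamoxifen libraries at 2075 peaks (1.32%) and below them at 2121 (1.35%). The median log2 difference of all tested peaks was -0.003.

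These counts do not show that the compounds act alike, so the interval of each difference was measured. Its median half-width was 0.61 on the log2 scale, or 1.53-fold. The 95% interval lay wholly within 2-fold at 101064 peaks (64.5%) and within 1.5-fold at 45549 (29.1%). Precision followed the level of the peak: with peaks in 4 classes of equal size by abundance, 12.4% of intervals stayed within 2-fold in the lowest class (median 1.29 CPM), and 55.2%, 90.7% and 99.6% in the next ones. At weak peaks a 2-fold difference was thus mostly not bounded by the interval, whereas at nearly all strong peaks a 2-fold difference lay outside it.

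**Figure D1:**
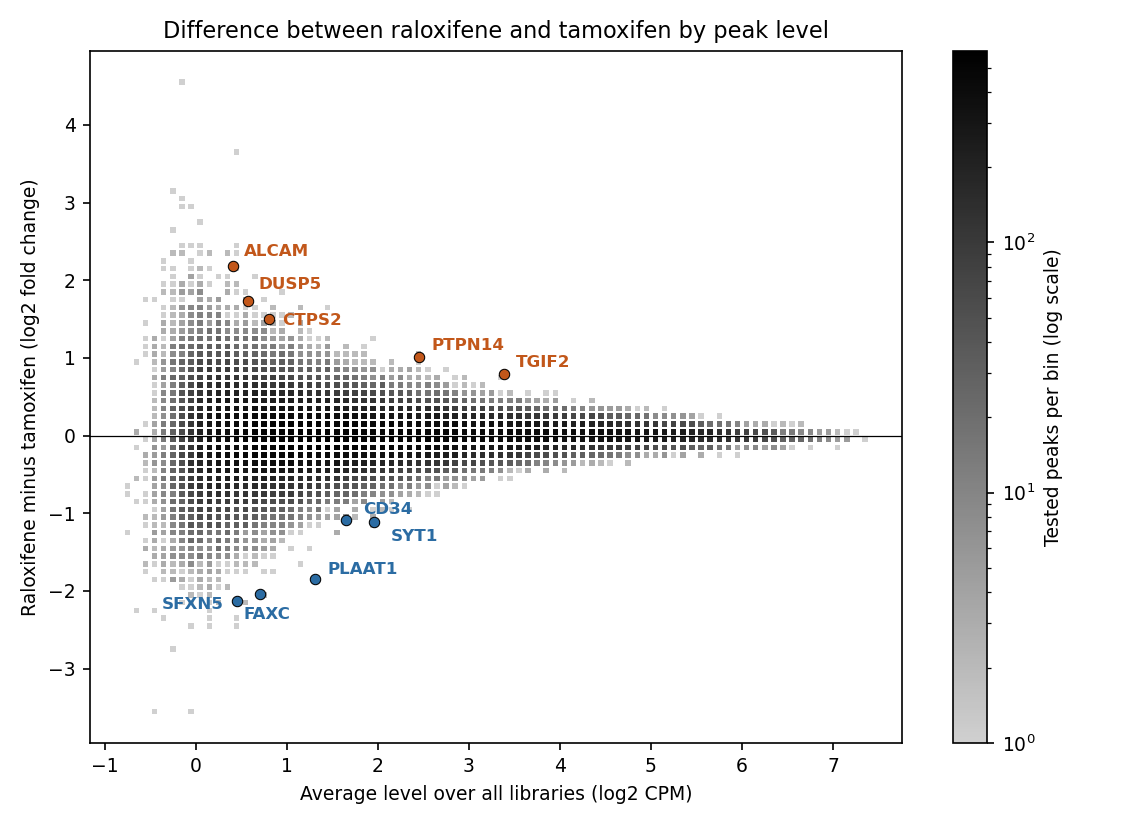
Each grey square counts tested peaks by their average level over all libraries (log2 CPM, x axis) and their log2 difference between raloxifene and tamoxifen (y axis); coloured points are the 5 peaks with the smallest p in each direction, labelled with their nearest gene. The cloud is centred on 0 and narrows as the level rises, and the TGIF2 point, at 0.80, lies outside it at a higher level than the other labelled peaks.

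Total counts in peaks ran from 7772169 to 10218691 with raloxifene and from 6725045 to 9871575 with tamoxifen. Replicates 1 and 2 stood apart from replicates 3 and 4 in both groups: over the 78372 more abundant peaks, the first principal component of the 8 libraries (25.6% of the variance) took values from -53.7 to -30.6 in the former and from 28.3 to 54.0 in the latter. The root mean square log2 distance between a raloxifene and a tamoxifen library was 0.368 to 0.421 within such a set and 0.414 to 0.472 across sets. Within the raloxifene group it was 0.359 to 0.425 and within the tamoxifen group 0.385 to 0.486, so the distances within and between the compounds overlapped. The labels name no batch, and values within each set are given below. Summed levels near the markers fixed for luminal cells (449 peaks near 18 genes, 5046 to 5390 CPM with raloxifene and 5049 to 5201 CPM with tamoxifen), for basal and mesenchymal cells (913 to 939 and 852 to 963 CPM) and for blood cells (946 to 1020 and 969 to 1020 CPM) overlapped between the groups.

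The smallest p between the compounds belonged to 1 peak within TGIF2, a homeobox gene whose protein represses transcription in TGF-β signalling. At this peak (chromosome 20, 36587377 to 36587616, inside the gene and outside its promoter window) the raloxifene libraries held 16.7, 20.8, 17.6 and 15.01 CPM and the tamoxifen libraries 11.4, 10.7, 9.82 and 8.84 CPM. The vehicle libraries held 10.1, 10.1, 9.78 and 9.05 CPM. Every raloxifene library lay above every tamoxifen and every vehicle library, while tamoxifen and vehicle overlapped.

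The TGIF2 difference between raloxifene (17.5 ± 2.43 CPM) and tamoxifen (10.2 ± 1.10 CPM; SD, n = 4) was 0.80 on the log2 scale (SE 0.152, 95% interval 0.50 to 1.10), with an unadjusted edgeR p of 1.27e-06 and an adjusted p of 0.198. It was of like size in both sets of replicates, 0.75 in replicates 1 and 2 and 0.82 in replicates 3 and 4. The peak was picked by its p on these same libraries. The like size, the lack of overlap and the interval follow in part from that choice. With only the raloxifene and tamoxifen libraries in the fit, the adjusted edgeR p was 0.0471. With the replicate sets as a term it was 0.0225. Against vehicle, raloxifene was higher at this peak by 0.85 (SE 0.150, edgeR adjusted p = 0.0410), and this was the 1 peak of 156745 (0.000638%) called for raloxifene against vehicle, with 5971 (3.81%) at an unadjusted p under 0.05. Tamoxifen differed from the same vehicle libraries by 0.05 at TGIF2, and 0 peaks (0%) were called for tamoxifen against vehicle, with 6479 (4.13%) at an unadjusted p under 0.05.

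The raloxifene call at TGIF2 was lost when any 1 vehicle library was left out, when raloxifene replicate 1, 2 or 3 or tamoxifen replicate 1, 2 or 3 was left out, and by DESeq2. It was also lost without vehicle replicates 3 and 4, which carry fulvestrant in their treatment label but DMSO in their titles. In starved cells the same peak held 2.03 ± 0.684 CPM with vehicle and 9.84 ± 1.73 CPM with estradiol (SD, n = 4), a log2 rise of 2.22 (SE 0.244, edgeR adjusted p = 1.30e-10). Its neighbours as a group did not share the difference: of 17 tested peaks within 50 kb of TGIF2, 8 were higher with raloxifene and the median was -0.01. The TGIF2 peak above was the 1 with an unadjusted edgeR p under 0.05 (3.92% of all tested peaks). Raloxifene lay wholly above tamoxifen at 2 of the 17 (1.32% of all tested peaks), that peak and one within MYL9 (difference 0.45). It lay wholly below at 1 (1.35%). The peak over the TGIF2 promoter (chromosome 20, 36573270 to 36573472) held 11.2 CPM with raloxifene and 11.3 CPM with tamoxifen, a difference of -0.01.

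The other 4 peaks with the smallest p among those higher with raloxifene had an adjusted p of 0.782 or more, and 3 of them were weak. Within PTPN14, a tyrosine phosphatase gene (chromosome 1, 214377149 to 214377406), raloxifene libraries held 7.45, 8.52, 4.89 and 8.60 CPM and tamoxifen libraries 4.71, 3.62, 3.68 and 2.66 CPM, a difference of 1.02 (95% interval 0.57 to 1.46). Vehicle was at 6.47 ± 0.272 CPM (SD, n = 4), from which tamoxifen differed by -0.84 and raloxifene by 0.18 on the log2 scale, so here the tamoxifen libraries were the ones away from vehicle. A peak 41.7 kb from DUSP5, a phosphatase gene that acts on ERK (chromosome 10, 110456134 to 110456342), held 1.55, 1.77, 1.51 and 2.32 CPM with raloxifene and 0.131, 0.473, 0.682 and 0.745 CPM with tamoxifen. Peaks 26.2 kb from CTPS2, a CTP synthase gene, and 1075 kb from ALCAM, an adhesion molecule gene, differed by 1.50 (0.71 to 2.29) and 2.18 (1.04 to 3.32). The groups did not overlap at any of these peaks, which follows in part from the choice by p.

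Among the 5 peaks with the smallest p that were higher with tamoxifen, the first lay 107 kb from PLAAT1, a phospholipase and acyltransferase gene (chromosome 3, 193133031 to 193133404). It held 0.724, 0.553, 0.931 and 0.955 CPM with raloxifene and 3.01, 3.15, 2.59 and 2.66 CPM with tamoxifen, a difference of -1.84 (SE 0.385, edgeR adjusted p = 0.511). Vehicle was at 2.51 ± 0.798 CPM (SD, n = 4), so the raloxifene libraries were low and tamoxifen and vehicle overlapped. A peak within FAXC (chromosome 6, 99282542 to 99282747) held 0.560 ± 0.194 CPM with raloxifene, 2.31 ± 0.522 CPM with tamoxifen and 1.10 ± 0.265 CPM with vehicle (SD, n = 4), with vehicle between the compounds. Peaks within SFXN5, a mitochondrial carrier gene, and within SYT1, the calcium sensor of synaptic vesicles, differed by -2.13 (-3.15 to -1.11) and -1.11 (-1.64 to -0.58), and one 40.4 kb from CD34, a surface protein of blood progenitors and vessels, by -1.09 (-1.61 to -0.56). Of the 10 smallest-p peaks, TGIF2 was the 1 called for estradiol in starved cells at an adjusted edgeR p under 0.05; estradiol differences at PTPN14 (-0.61) and PLAAT1 (0.76) had adjusted edgeR p-values of 0.667 and 0.627.

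**Figure D2:**
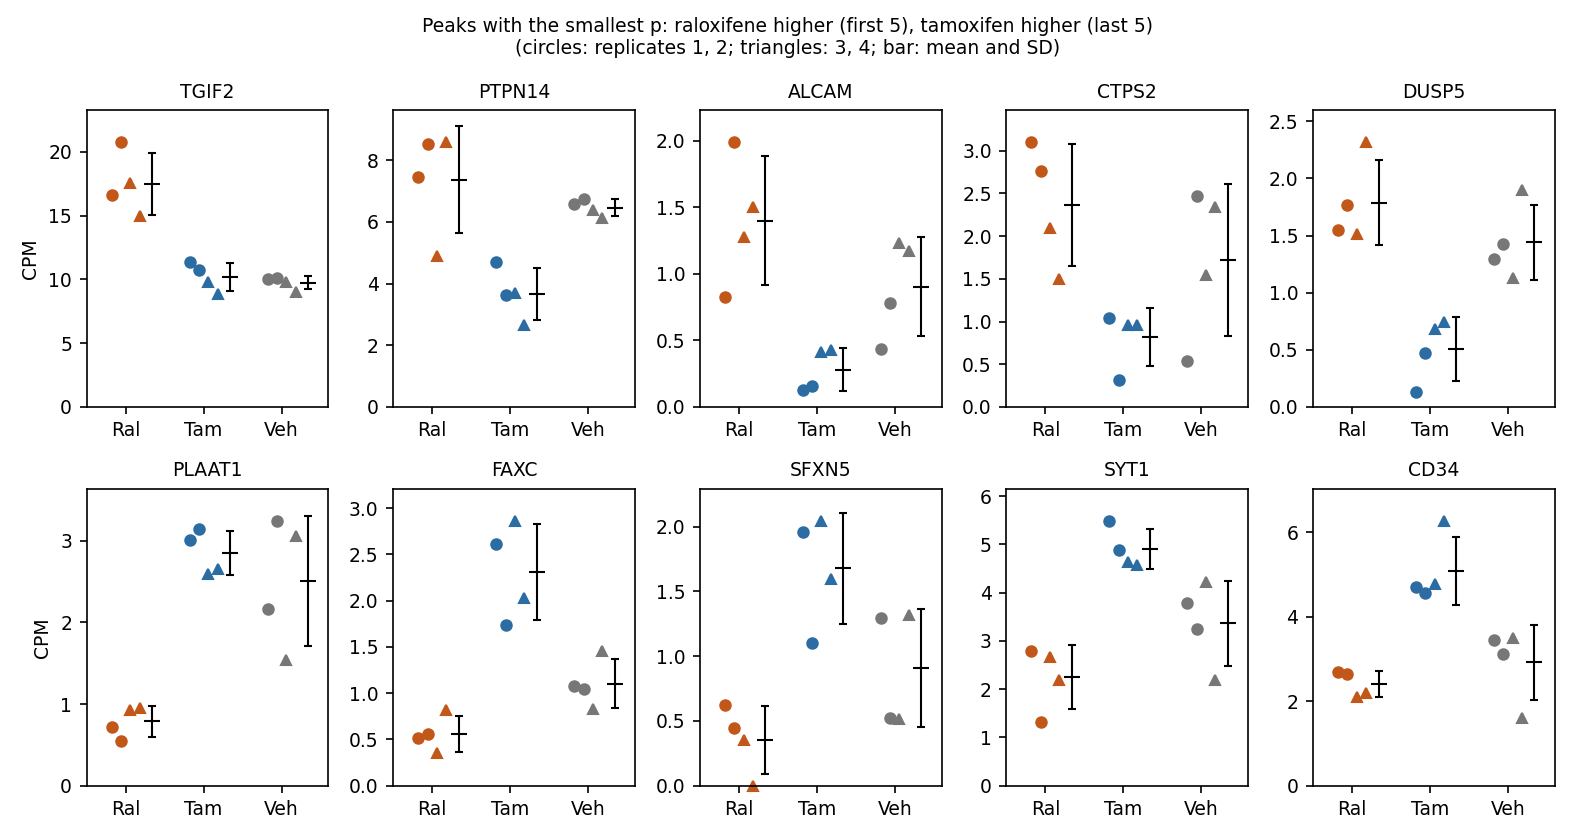
CPM in each library (y axis) for raloxifene, tamoxifen and vehicle in complete medium (x axis) at the 5 peaks of smallest p in each direction, with the mean and SD beside the points. Vehicle is close to tamoxifen at TGIF2 and PLAAT1, close to raloxifene at PTPN14 and DUSP5, and between the compounds at FAXC.

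At sites that respond to estradiol, most peaks lay slightly higher with raloxifene than with tamoxifen, without passing the test. For each estrogen-induced gene on the list, the estradiol-raised peak with the smallest estradiol p within 50 kb was taken, which gave 21 genes; estradiol changed 0.835% of the peaks tested in either direction, of which 1274 (0.813%) were raised. Between raloxifene and tamoxifen, 16 of the 21 peaks had a difference above 0 and 5 below, none was called, and the median was 0.14 against -0.003 for all tested peaks. The differences ran from -0.23 at CELSR2 to 0.80 at TGIF2, and 19 of the 21 intervals stayed within 2-fold, TGIF2 and ELOVL2 being the others.

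The strongest estradiol response among them lay within ZMIZ1, whose protein is a transcriptional coregulator of the PIAS-like family (chromosome 10, 79128630 to 79128949, raised from 5.88 to 38.6 CPM in starved cells). Raloxifene libraries held 58.0, 59.1, 55.4 and 60.1 CPM there and tamoxifen libraries 52.0, 45.5, 46.9 and 44.5 CPM. The 2 groups did not overlap, and the difference was 0.30 (SE 0.0990, 95% interval 0.10 to 0.50, edgeR unadjusted p = 0.00338, adjusted p near 1). It was 0.26 in replicates 1 and 2 and 0.34 in replicates 3 and 4. Vehicle, at 50.2 ± 3.73 CPM (SD, n = 4), lay between the compounds. All 4 estradiol-raised peaks within 50 kb of ZMIZ1 were higher with raloxifene, with a median of 0.22, against 0.03 for all 68 tested peaks there.

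At the progesterone receptor gene PGR, a classical marker of receptor activity, the compounds could not be separated (chromosome 11, 101034171 to 101034404). The peak held 37.6, 36.6, 34.4 and 32.5 CPM with raloxifene and 36.4, 35.1, 31.0 and 35.7 CPM with tamoxifen, a difference of 0.03 (-0.19 to 0.26). Within GREB1, a receptor coactivator and early target (chromosome 2, 11531048 to 11531281), raloxifene held 32.4, 30.8, 27.6 and 27.6 CPM and tamoxifen 36.1, 34.3, 27.1 and 30.8 CPM, a difference of -0.11 (-0.35 to 0.13). The groups overlapped at both genes.

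A peak 36.0 kb from ADCY9, an adenylyl cyclase gene (chromosome 16, 4152339 to 4152569), held 44.3, 42.7, 37.9 and 31.9 CPM with raloxifene and 36.4, 43.3, 33.4 and 31.2 CPM with tamoxifen, a difference of 0.14 (-0.09 to 0.37). Within RARA, the retinoic acid receptor alpha gene (chromosome 17, 40322369 to 40322630), raloxifene held 90.2, 93.7, 99.6 and 97.6 CPM and tamoxifen 89.0, 96.4, 75.03 and 86.4 CPM, a difference of 0.14 (-0.05 to 0.33). The low tamoxifen value was that of replicate 3, and the difference was -0.01 in replicates 1 and 2 against 0.28 in replicates 3 and 4. Within SIAH2, a ubiquitin ligase gene (chromosome 3, 150756496 to 150756701), the values were 19.9, 21.2, 20.6 and 18.2 CPM with raloxifene and 18.3, 18.1, 17.1 and 19.4 CPM with tamoxifen, a difference of 0.13 (-0.12 to 0.39). Within SGK3, a kinase gene of the AKT-like family (chromosome 8, 66713944 to 66714185), they were 52.3, 51.9, 48.2 and 47.5 CPM with raloxifene and 50.9, 52.0, 46.0 and 50.0 CPM with tamoxifen, a difference of 0.01 (-0.19 to 0.21). The groups overlapped at all 4 of these genes.

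**Figure D3:**
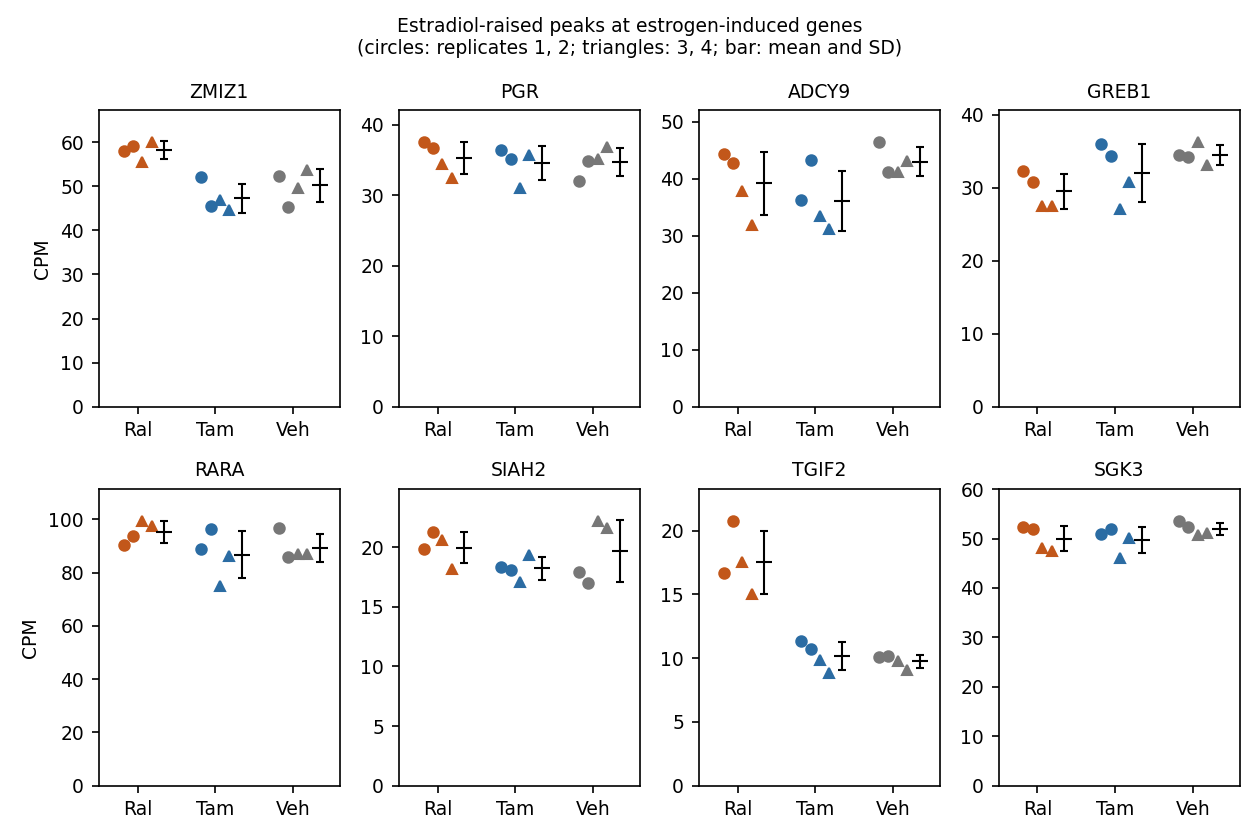
CPM in each library (y axis) for raloxifene, tamoxifen and vehicle in complete medium (x axis), with the mean and SD beside the points. The genes are the 8 estrogen-induced ones with the smallest estradiol p. Raloxifene lies wholly above tamoxifen at ZMIZ1 and TGIF2, and the groups overlap at the other 6 genes.

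The other 13 estrogen-induced genes had differences from -0.23 to 0.38 with a median of 0.14, and their groups overlapped at all 13. Raloxifene was at 27.5 ± 2.20 and tamoxifen at 22.6 ± 2.29 CPM (SD, n = 4) beside CA12, a carbonic anhydrase gene of luminal tumours, a difference of 0.28 (0.05 to 0.52). Beside PDZK1, a scaffold protein gene, the levels were 12.3 ± 2.33 and 9.39 ± 0.693 CPM, a difference of 0.38 (0.05 to 0.71) that was 0.09 in replicates 1 and 2 and 0.66 in replicates 3 and 4. CA12, PDZK1, ZMIZ1 and TGIF2 were the 4 of 21 with an unadjusted edgeR p under 0.05, all higher with raloxifene. Among all tested peaks, 1.85% were higher with raloxifene and 2.07% with tamoxifen at that p. The secreted trefoil factor gene TFF1 had 0.18 (-0.22 to 0.57), the lysosomal protease gene CTSD 0.03 (-0.17 to 0.23), the binding protein gene IGFBP4 0.17 (-0.11 to 0.46) and the transcription factor gene MYB 0.14 (-0.19 to 0.48). Below 0 were XBP1, a transcription factor of the unfolded protein response (-0.04), THSD4 (-0.12), the fatty acid elongase gene ELOVL2 (-0.17, with the interval -1.003 to 0.66) and the cadherin gene CELSR2 (-0.23).

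**Figure D4:**
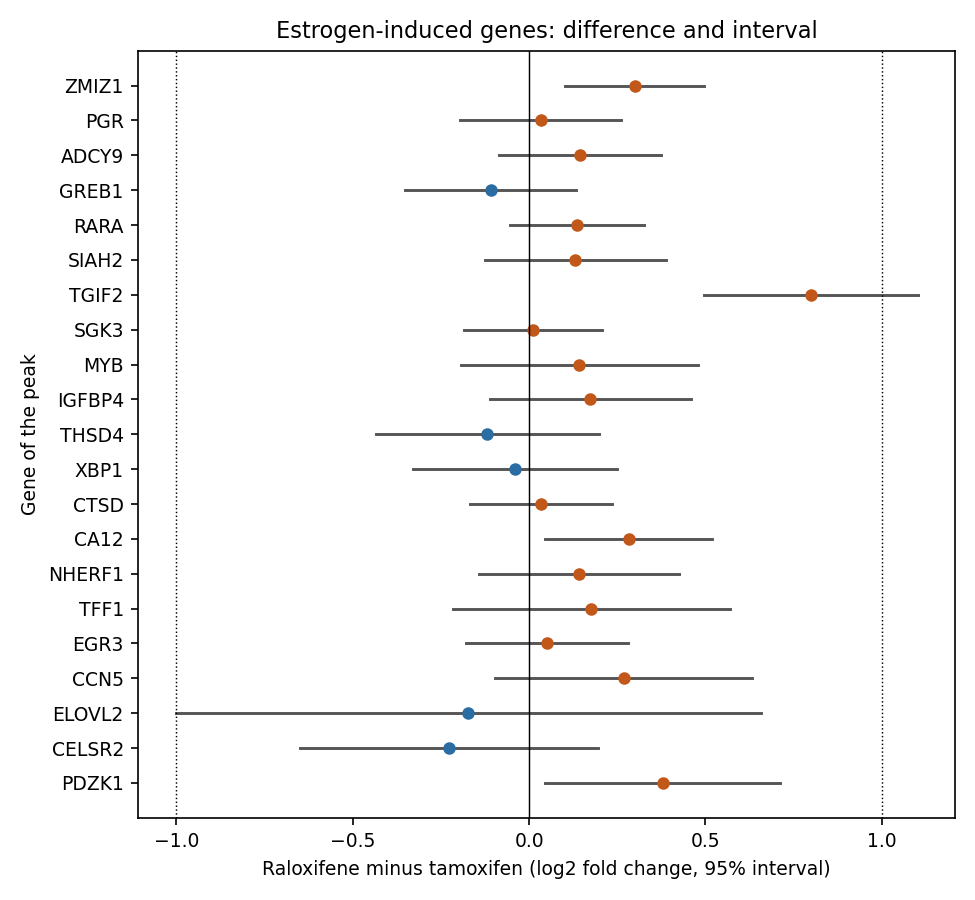
Log2 difference between raloxifene and tamoxifen (x axis, point) with its 95% interval (line) at 1 estradiol-raised peak for each of 21 estrogen-induced genes (y axis), in the order of the estradiol p; dotted lines mark 2-fold. Intervals exclude 0 at ZMIZ1, TGIF2, CA12 and PDZK1 before adjustment, and those of TGIF2 and ELOVL2 reach past 2-fold.

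Over all 1274 estradiol-raised peaks the median difference was 0.09, and 69.1% of them were higher with raloxifene, against 49.5% of all tested peaks. An unadjusted edgeR p under 0.05 was reached by 80 peaks higher with raloxifene (6.28% of the set, against 1.85% of all tested peaks) and 9 higher with tamoxifen (0.706%, against 2.07%). All raloxifene libraries lay above all tamoxifen libraries at 40 of the peaks (3.14%, against 1.32% of all tested peaks) and below them at 5 (0.392%, against 1.35%). Against the same vehicle libraries the medians of these peaks were 0.01 for raloxifene and -0.07 for tamoxifen. The peaks were chosen in starved libraries that hold neither compound, but peaks of one library rise and fall together, so the counts are a description and the test was made on 1 value per library.

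That value, the mean log2 CPM of the estradiol-raised peaks minus the mean of all tested peaks, was 1.22, 1.17, 1.06 and 1.05 in raloxifene replicates 1 to 4 and 1.16, 1.17, 0.87 and 0.91 with tamoxifen. Vehicle had 1.16, 1.10, 1.07 and 1.05. Tamoxifen replicates 3 and 4 were the low ones, and replicates 1 and 2 overlapped raloxifene. The difference was 0.10 (97.1% interval -0.13 to 0.35), raloxifene lay above in 11 of 16 pairs of libraries, and the two-sided exact permutation p was 0.314 (0.629 adjusted over the 4 sets; 0.0286 is the smallest that 4 against 4 can give). Within replicates 1 and 2 the difference was 0.03, and within replicates 3 and 4 it was 0.16. Leaving out tamoxifen replicate 3 or 4 gave 0.04 and 0.05, and leaving out tamoxifen replicate 2 gave 0.14.

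The same split appeared peak by peak. In replicates 1 and 2, 55.0% of the estradiol-raised peaks were higher with raloxifene (median 0.03), and in replicates 3 and 4, 70.6% (median 0.15). Divided by the size of the estradiol response, the steepest 425 peaks had a median difference of 0.15, the middle 424 had 0.09 and the weakest 425 had 0.07, while the share higher with raloxifene was 69.6%, 67.5% and 70.1%. The steepest peaks were also the weakest in level (median 3.12 CPM, against 14.7 CPM in the part with the smallest response), and divided by level the medians were 0.13, 0.11 and 0.08 from the lowest to the highest part, so response and level were not told apart. All 3 parts by response had medians of 0.06 or less in replicates 1 and 2. A direct test of compound against replicate set (interaction, edgeR) called 0 peaks of 156745, with 6984 at an unadjusted p under 0.05.

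Among the estradiol-raised peaks, those with the smallest p between the compounds were picked after their values were seen. Behind TGIF2, a peak 26.8 kb from TPRKB, a gene of the tRNA-modifying KEOPS complex (chromosome 2, 73702931 to 73703222), held 2.90, 2.99, 2.09 and 2.18 CPM with raloxifene and 0.654, 1.10, 0.955 and 1.28 CPM with tamoxifen. Within PPP2R2C, a regulatory subunit gene of protein phosphatase PP2A (chromosome 4, 6415380 to 6415676), raloxifene held 13.2, 11.7, 6.75 and 8.19 CPM and tamoxifen 7.71, 8.35, 5.18 and 4.47 CPM. The TPRKB values did not overlap between the compounds, whereas those at PPP2R2C did, since raloxifene replicates 3 and 4 lay near or below tamoxifen replicates 1 and 2. A peak 170 kb from KITLG, the gene of the KIT receptor's ligand, held 9.10 ± 1.63 and 6.17 ± 1.70 CPM (SD, n = 4). The adjusted edgeR p of TPRKB, PPP2R2C and KITLG was near 1.

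At other hormone-dependent sites the compounds overlapped too. The 35 peaks lowered by estradiol (0.0223% of those tested) had a level difference of 0.05 (97.1% interval -0.04 to 0.17, two-sided exact permutation p = 0.257). Raloxifene lay above in 11 of 16 pairs of libraries, as in the estradiol-raised set. The median difference of these 35 peaks was 0.10, and 54.3% of them were higher with raloxifene. A lean toward raloxifene was thus not shown to be particular to estradiol-raised peaks. Peaks called higher in complete than in starved medium (12423) differed by 0.01 (-0.06 to 0.10, exact p = 0.714) and those called higher in starved medium (15537) by 0.02 (-0.11 to 0.13, exact p = 0.571); 17.8% of tested peaks differed between the media. The intervals bound any difference in the mean level of these last 2 sets to at most 0.13 on the log2 scale.

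**Figure D5:**
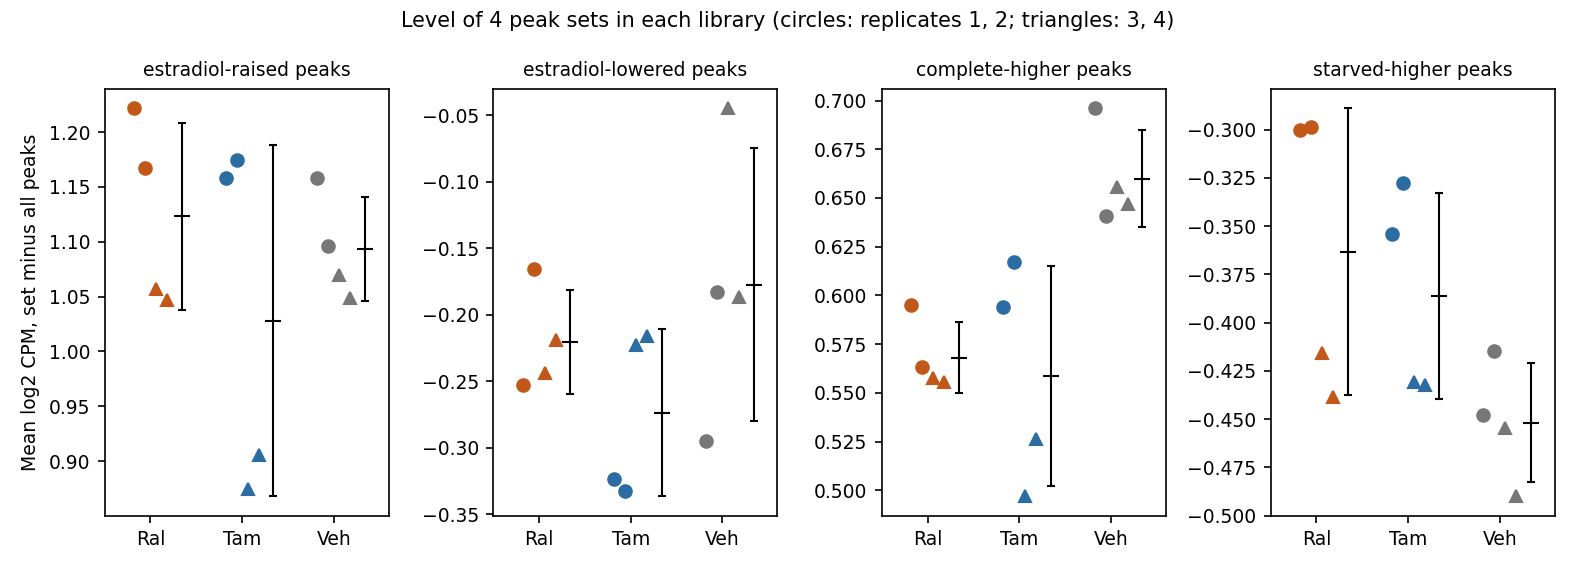
Mean log2 CPM of 4 peak sets minus that of all tested peaks (y axis), with the mean and SD. Points are single raloxifene, tamoxifen and vehicle libraries in complete medium (x axis). Circles are replicates 1 and 2 and triangles replicates 3 and 4. In the estradiol-raised set, tamoxifen replicates 3 and 4, at 0.87 and 0.91, lie below all other libraries shown. Raloxifene and tamoxifen overlap in every set. The sets called between the media were called with these same vehicle libraries, so where vehicle lies in them follows in part from that choice. Fulvestrant, not plotted, had 1.02, 1.08, 0.56 and 0.42 in the estradiol-raised set in replicates 1 to 4. Its replicate 4 was shallow (434598 counts, 36.1% of deposited peaks at 0), so its value is not on a par with the others.

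None of 16 gene lists held a called peak within 50 kb of its genes. Near the 32 estrogen-induced genes (787 peaks), 25 peaks were higher with raloxifene and 11 with tamoxifen at an unadjusted edgeR p under 0.05, 4.57% of the list together against 3.92% of all tested peaks (1.85% and 2.07% by direction), and the median difference was 0.03. Near the 12 estrogen-repressed genes (293 peaks) the counts were 9 and 1 (3.41% together) and the median 0.04. Near KRT8 and KRT18, the luminal keratin pair whose surroundings share peaks, 5 of 43 and 4 of 31 peaks were higher with raloxifene at that level and none with tamoxifen, beside 1.85% and 2.07% of all tested peaks. These genes were singled out after the values were seen. KRT19, the other keratin of the luminal list, had 0 of 25 peaks in either direction, as had ESR1 (0 of 60) and GATA3 (0 of 38). The whole luminal list had 13 of 449 peaks higher with raloxifene and 6 with tamoxifen. The lists of luminal identity (449 peaks), receptor coregulators (358), immediate early genes (254), glucocorticoid and progestin response (180) and cell cycle (201) had medians of 0.02, -0.01, 0.02, -0.01 and 0.004, beside -0.003 for all tested peaks.

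Lists bearing on each drug's own chemistry were likewise centred near 0, and their counts below stand beside 1.85% of all tested peaks higher with raloxifene and 2.07% higher with tamoxifen at the same unadjusted p. Near 16 genes of drug metabolism and efflux, through which tamoxifen is activated and both drugs are cleared, 0 of 129 peaks had an unadjusted edgeR p under 0.05 and the median was -0.03. Targets of the aryl hydrocarbon receptor, which binds many flat aromatic compounds, had 1 of 121 peaks higher with raloxifene, none higher with tamoxifen and a median of -0.003. Sterol synthesis genes, some of whose enzymes tamoxifen is known to inhibit, had 1 and 3 of 184 peaks in each direction and a median of 0.01. Lysosome and phospholipidosis genes, listed because cationic amphiphilic drugs gather in lysosomes, had 1 and 5 of 253 and a median of 0.04, and protein kinase C and calcium genes had 6 and 3 of 317 and a median of 0.01.

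The strongest peaks of these lists were the most precisely measured. At 30 list entries the differences ran from -0.17 to 0.13 and every interval stayed within 2-fold. None had an unadjusted edgeR p under 0.05, against 3.92% of all tested peaks. In the most abundant of the 4 classes, 1.43% of peaks were higher with raloxifene and 1.02% with tamoxifen at that p. At 30 entries, none cannot be told from such shares. Beside PLA2G15, the lysosomal phospholipase gene (chromosome 16, 68234192 to 68234572), raloxifene held 71.4, 65.3, 65.7 and 74.5 CPM and tamoxifen 76.8, 79.4, 76.0 and 79.2 CPM. The difference was -0.17 (interval -0.35 to 0.01), and this was the 1 of the 30 whose groups did not overlap. Of all tested peaks, raloxifene lay wholly above tamoxifen at 1.32% and wholly below at 1.35%. At NQO1, a quinone reductase gene, the difference was -0.10 (-0.28 to 0.07), at TIPARP, an aryl hydrocarbon receptor target, 0.05 (-0.14 to 0.24), and beside FMO1, a flavin monooxygenase gene that metabolises drugs, -0.13 (-0.32 to 0.05). Near the immediate early gene FOS it was 0.09 (-0.09 to 0.26).

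By position, the 12043 peaks in promoter windows had a median difference of 0.01, with 130 higher with raloxifene (1.08%) and 103 with tamoxifen (0.855%) at an unadjusted edgeR p under 0.05, against 1.85% and 2.07% of all tested peaks, and peaks inside genes (70621) and over 100 kb from any gene (23023) had medians of -0.01 and -0.01. Promoter peaks took 26.7% to 28.1% of counts with raloxifene and 26.7% to 27.6% with tamoxifen. Between the 2 sets of replicates, which share no library, the differences of all tested peaks had the same sign at 50.4% of peaks, and their Pearson correlation across peaks was 0.03, given as a description since peaks of a library share its depth. Of the 100 peaks with the smallest p in replicates 1 and 2, 57% had the same sign in replicates 3 and 4, and of the 100 with the smallest p in replicates 3 and 4, 51% had it in replicates 1 and 2.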

How the data were processed

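The libraries were grouped by title. Per the submitters' processing notes, reads were handled with cutadapt 1.8.1, Bowtie2 2.4.4 and SAMtools 1.9 on hg38. How peaks were called and counted, how duplicates were treated and whether reads were shifted for Tn5 was not given in the sources used here. In the table the authors deposited raw counts per peak in 1 peak set for all 24 libraries. Peak starts are as deposited, with no statement of whether they count from 0 or 1.

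All libraries entered an edgeR 4.0.16 quasi-likelihood fit (R 4.3.3) with 6 group means, TMM scaling, filterByExpr (minimum count 10, total 15) and Benjamini-Hochberg adjustment over all tested peaks; a peak is called at an adjusted p under 0.05. The 6 groups were raloxifene, tamoxifen, fulvestrant and vehicle in complete medium, and estradiol and vehicle in starved cells. Fulvestrant replicate 4 was shallow, with 434598 counts and 36.1% of deposited peaks at 0. Starved vehicle replicate 3 held 2422981 counts. SE is the fold change over the root of F, and log CPM used a prior count of 2. Intervals reflect the spread between libraries and counting error only. The pipeline was tested on simulated data. No 2 libraries of either compound agreed within sampling noise (chi-square over its degrees of freedom 1.68 to 2.08). Genes are the nearest protein-coding ones of RefSeq GRCh38.p14, or a list gene within 50 kb; 230 of 231 list entries matched. Alternatives were other scalings, filters, groups in the fit, DESeq2 1.42.0, terms for replicate number or set, and leaving out libraries.

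Peaks were named by a rule: the 5 smallest p in each direction; per estrogen-induced gene the estradiol-called peak of smallest estradiol p; and per other list the 2 strongest peaks of different genes. The comparison, lists and rule were chosen with earlier results of these data known. A genome of the files' build was not used here, so no peak sequence is printed. Some results of the named-peak rule are not reported here.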

Additional observations from a re-analysis of the deposited data

Results flagged for a closer look

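In 128 groups of 4 libraries (totals, promoter share, set levels and named peaks, for each compound), 6 single libraries stood far from the other 3, where chance flags about 1 in 20 groups. With raloxifene, replicate 3 held 13.3 CPM at the THSD4 peak, against 9.73 to 9.93 CPM in the others, and replicate 2 held 91.1 CPM at the peak near the keratin genes KRT13, KRT14 and KRT19, against 102 to 104 CPM. With tamoxifen, replicate 2 held 0.315 CPM at the CTPS2 peak, against 0.955 to 1.05 CPM, and replicate 4 held 6.28 CPM at the CD34 peak, against 4.57 to 4.77 CPM. Tamoxifen replicate 3 held 4.64 CPM at the TFF1 peak, against 7.03 to 7.45 CPM, and replicate 1 held 80.4 CPM at the NR1I3 peak, against 87.6 to 88.9 CPM. None of these peaks was called between the compounds.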

How the results depend on the processing

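Over 27 alternatives, no peak was called between raloxifene and tamoxifen except the TGIF2 peak, which was called (1 peak, higher with raloxifene) with only the compared groups in the fit (adjusted p 0.0471), with the replicate block (0.0350) and with the replicate sets as a term (0.0225); the same 1 of the named peaks was then called. Whether equal numbers pair the libraries could not be told. Same-numbered libraries of the compounds deviated together with correlations of 0.046 to 0.081, and not every library was closest to its own number. Other numbers of the same replicate set gave 0.062 to 0.075, and libraries of different sets -0.108 to -0.037. The deviations thus followed the replicate sets. Paired by number, the estradiol-raised level differed by 0.10 (exact p = 0.25). For raloxifene against vehicle, 2 peaks (TGIF2 and one 25.7 kb from MINDY4B) were called with only the compared groups, the replicate block and the set term. None was called with total counts, loess offsets, no low-count filter, the older edgeR dispersion estimate, DESeq2, within either set of replicates, or without the vehicle libraries of conflicting label, and leaving out 1 library gave 0 to 1. For tamoxifen against vehicle, 1 peak (within DIP2C) was called within replicates 1 and 2. Intervals within 2-fold made up 42.2% of peaks within replicates 1 and 2 and 41.2% within replicates 3 and 4. The share of estradiol-raised peaks higher with raloxifene ran from 55.1% within replicates 1 and 2 to 76.1% without tamoxifen replicate 2. Small set differences changed sign: -0.012 for estradiol-lowered peaks within replicates 3 and 4, and -0.026 for complete-medium peaks within replicates 1 and 2. For the latter, leaving out 1 library gave -0.011 (without tamoxifen replicate 3) to 0.029, with -0.0012 without tamoxifen replicate 4. The sign held in every alternative at 11 of 20 estrogen-induced genes beside TGIF2. The 10 smallest-p peaks kept theirs where tested, which their choice by p on the same libraries makes likely and which shows no stability. Leaving out each vehicle library and the share of estradiol-raised peaks under each fit were added after seeing the data. The cause of these changes was not tested.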

Other observations

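By chromosome, the median difference between raloxifene and tamoxifen ran from -0.02 on chromosome 8 (8288 peaks, of which 115 were higher with raloxifene and 204 with tamoxifen at an unadjusted edgeR p under 0.05) to 0.04 on chromosome 19 (4715 peaks, 128 and 51). Chromosome 22 stood at 0.03 (2732 peaks, 59 and 26). The shares higher with raloxifene and with tamoxifen were 1.39% and 2.46% on chromosome 8, 2.71% and 1.08% on chromosome 19 and 2.16% and 0.952% on chromosome 22, against 1.85% and 2.07% of all tested peaks. The median level of the peaks was 2.58 CPM on chromosome 8, 4.72 CPM on chromosome 19 and 3.37 CPM on chromosome 22, and the part of level in these medians was not tested. Promoter windows with the AP-1 motif (TGANTCA, a palindrome; 7.71% of all windows; 702 tested peaks) and with the forkhead motif (TGTTTAC on either strand; 3.42%; 365 tested peaks) had median differences of 0.01 and -0.004, against 0.01 for peaks in promoter windows without the motif in each case.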
